A study of Mus musculus with 8 samples.

Results

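The genes described here encode the machinery that starts transcription by RNA polymerase II (Pol II) in mouse embryonic stem cells (ESCs). Members were protein-coding genes named Polr2a to Polr2m (Pol II), Gtf2 with a letter from a to h (the general factors TFIIA, TFIIB, TFIIE, TFIIF and TFIIH), Taf with a number, with or without a final b (TBP-associated factors), or Med with a number (Mediator), together with Tbp, the TATA-binding protein. The rule used symbols only and no measured value. It found 73 of the 55401 genes in the count files: 13 Pol II genes, 12 general factor genes, 16 genes of TFIID (Tbp and 15 TAFs), 30 Mediator genes and 2 that carry a TAF name without being stable TFIID subunits. These 2 were Taf1b, a subunit of the SL1 factor of Pol I, and Taf15, an RNA-binding protein of the FET family. An antisense RNA, Med9os, also matched the Med pattern and was left out because it is not protein-coding.

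Total RNA was sequenced from 8 ESC cultures. The study's methods describe an ESC medium with serum, leukaemia inhibitory factor and the 2 inhibitors CHIR99021 and PD0325901. They also describe G418 to select for Tir1, the plant F-box protein through which auxin acts on a degron, without naming the Control cultures. The group Zzz3_auxin (n = 3) had ZZZ3, and the group Yeats2_auxin (n = 3) had YEATS2, fused to an auxin-inducible degron and depleted with auxin at 500 µM for 24 h. Both proteins are subunits of the ATAC coactivator complex, which carries a histone acetyltransferase, and the study asked how the abundance of RNAs relates to their synthesis when a coactivator is lost. The labels of the group Control (n = 2) give neither its cell line nor whether it received auxin or solvent, and the study's supplement, which speaks of DMSO and auxin for both degron lines in describing its kinetic estimates, does not tie these 2 libraries to either line. A comparison with Control may therefore hold depletion, exposure to auxin and any difference of line together, and these cannot be told apart. Nothing in the labels says that replicates came from separately derived clones, so P values measure the spread between these cultures, which may be technical. Levels are relative to the other RNAs of the same library. In bulk RNA, fewer cells that express a gene and less of its RNA per cell cannot be told apart.

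As background, transcription of a protein-coding gene begins when TFIID, in which TBP and the TAFs are assembled, binds the core promoter and TFIIA and TFIIB join it. Pol II arrives with TFIIF, TFIIE and TFIIH complete the assembly, and TFIIH opens the DNA and phosphorylates the tail of the largest Pol II subunit. Mediator bridges activators and Pol II through its tail, middle and head modules, and a separable kinase module regulates it. Several TAFs are shared with SAGA, another coactivator that has a histone acetyltransferase in common with ATAC.

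Libraries held 14315120 to 27884704 reads assigned to genes, and all 73 members passed the filter on low counts (filterByExpr), which kept 17532 genes. Among 10 ESC markers that included Pou5f1, Nanog and Sox2, all were tested and their summed level was 4672 to 5514 CPM (the read count scaled by library size) in the 8 libraries. Tfcp2l1 was the largest part of that sum, with a Control mean of 2343 CPM. Pou5f1, Nanog and Sox2 had Control means of 347, 753 and 339 CPM, and Dppa3 had 3 CPM. Fibroblast and primitive endoderm markers together stayed near 0 (summed levels of 1.27 to 2.15 and 3.99 to 7.17 CPM). The 8 primed and germ layer markers summed to more, at 19.7 to 34 CPM. Eomes, Cdx2, T and Sox1 had Control means of 9.03, 8.71, 6.59 and 5.13 CPM. Zzz3 RNA was 186 and 182 CPM in Control and 77.4, 96.8 and 112 CPM in Zzz3_auxin (log2 FC -0.95, edgeR adjusted p = 0.0187). Yeats2 RNA was 90.8 and 95.8 CPM in Control and 77.2, 103 and 43.7 CPM in Yeats2_auxin (log2 FC -0.32, edgeR adjusted p = 0.605). Degradation through a degron acts on protein, so neither RNA value measures the depletion. A library property that touches the results below is how strongly counts depended on the GC content of the transcript. Relative to the mean of all libraries, genes above 53.9% GC stood above those below 44.3% GC (the outer 25% on each side, among genes whose mean level reached 1 CPM) by -0.60 on the log2 scale in Control replicate 1 and by 0.43 in Zzz3_auxin replicate 3, against -0.08 to 0.16 in the other 6 libraries.

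No member of the Pol II initiation machinery passed the edgeR test over all libraries in any comparison. Of the 73 members, 0 were called at an edgeR adjusted p under 0.05 in Zzz3_auxin against Control, where 0.753% of all genes tested were called. In Yeats2_auxin against Control 0 were called, beside 0.445% of all genes, and in Yeats2_auxin against Zzz3_auxin 0 were called, beside 0% of all genes. DESeq2 called 6 members in the first comparison (Gtf2f1 and Taf6 higher, Gtf2e2, Med21, Taf13 and Taf15 lower, with adjusted p of 0.00626 to 0.0489) and 0 in both others. It called 7.78% of all genes in the first, so the members' share (8.22%) was near that of all genes, and 2.75% and 0.00909% in the others. Calls by limma-voom were 0, 1 (Med21, lower) and 0, beside 0.508%, 2.21% and 0.00570% of all genes. Without Zzz3_auxin replicate 2, edgeR called 6 members in Zzz3_auxin, 5 of them among those of DESeq2 and Polr2g in place of Taf15, while its calls over all genes went from 132 (0.753%) to 841 (4.84%). The smallest edgeR adjusted p of a member was that of Med21 in both comparisons with Control (0.0618 and 0.138), and in the direct comparison of the depletions it was 0.779.

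At an unadjusted edgeR p under 0.05, 7 members lay higher and 12 lower in Zzz3_auxin than in Control, which is 9.59% and 16.4% of the members. The same threshold held for 11.6% of all genes in the higher and 10.1% in the lower direction. In Yeats2_auxin 3 members lay higher (4.11%, against 7.65% of all genes) and 6 lower (8.22%, against 6.98% of all genes). In the direct comparison of the depletions, 1 member lay higher and 1 lower (1.37% each), beside 2.44% and 3.81% of all genes. In both comparisons with Control the share of members was below that of all genes in the higher direction and above it in the lower direction. The lower share in Yeats2_auxin was near that of all genes, and none of these shares was tested. Without any overlap between the libraries of Zzz3_auxin and Control, 9 members lay higher and 19 lower (12.3% and 26.0% of the members, against 16.8% and 18.9% of all genes). For Yeats2_auxin the counts were 8 higher and 20 lower (11.0% and 27.4%, against 19.3% and 21.0% of all genes). Both comparisons use the same 2 Control libraries, so their counts are not independent.

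The precision of the fits is given next. The intervals hold only the spread between cultures in this fit, and neither the GC trend of the libraries nor any difference of the Control cultures. The median standard error of a member's log2 FC was 0.15 in both comparisons with Control, against 0.22 over all genes. The 95% interval lay within a 2-fold change in either direction for 65 of 73 members in Zzz3_auxin and for 70 of 73 in Yeats2_auxin, and within a 1.5-fold change for 39 and 47. In Yeats2_auxin against Zzz3_auxin 71 intervals lay within 2-fold and 60 within 1.5-fold. A log2 FC beyond 0.5 in size was fitted for 10 members in Zzz3_auxin, 3 in Yeats2_auxin and 2 in the direct comparison.

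**Figure D1:**
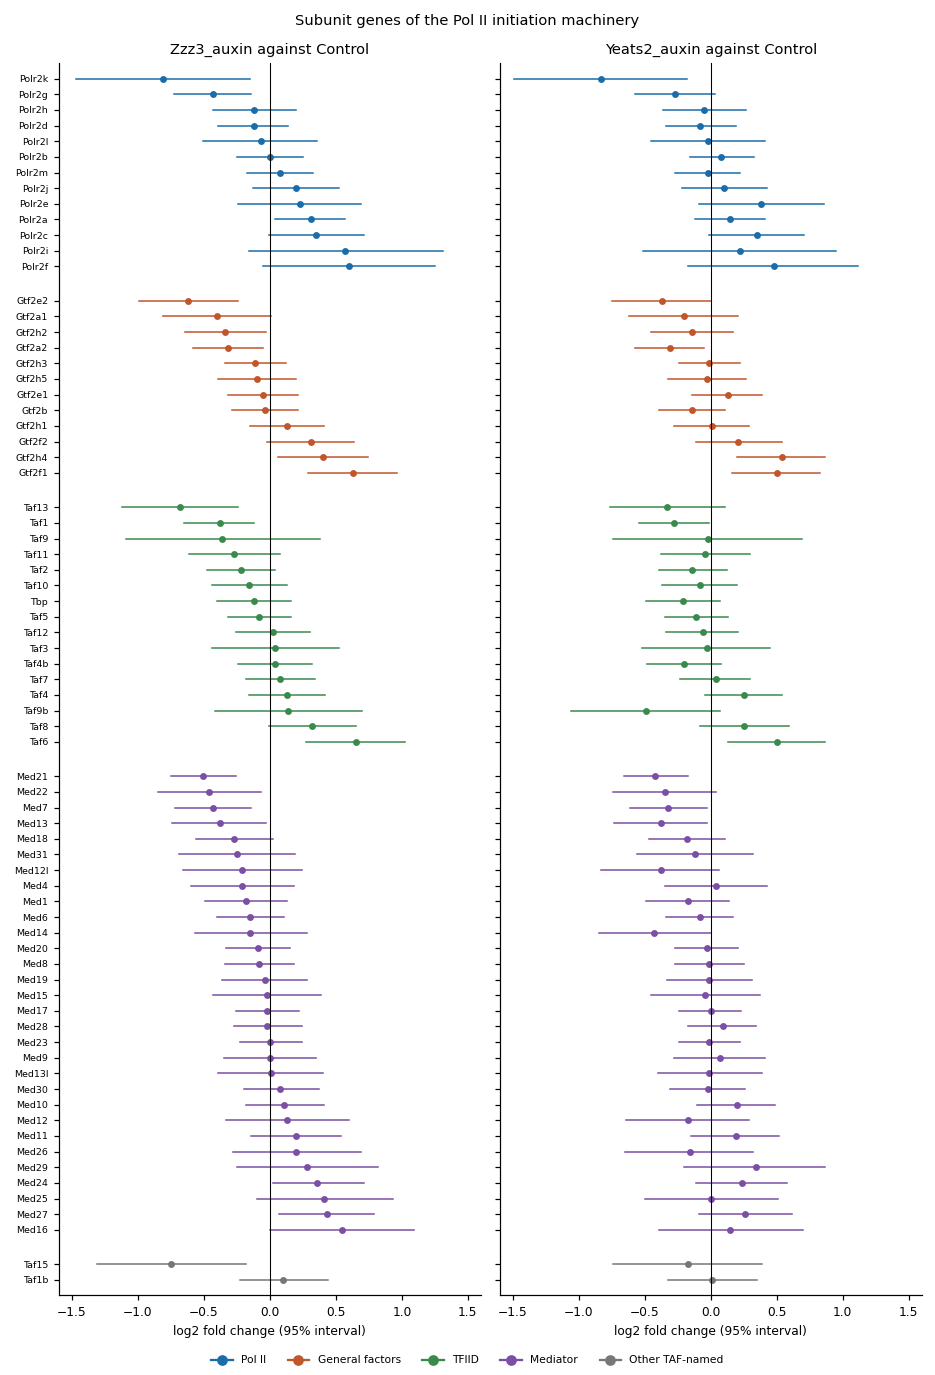
Log2 fold change (horizontal axis) of each of the 73 members with its 95% interval, for Zzz3_auxin against Control (left) and Yeats2_auxin against Control (right), coloured by complex and ordered within each complex by the left panel. Points run from -0.81 (Polr2k) to 0.65 (Taf6) on the left and from -0.83 (Polr2k) to 0.54 (Gtf2h4) on the right, and no member passed the adjusted threshold in edgeR, from whose fit the values come.

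By complex, the medians lay close to those of all genes. In Zzz3_auxin against Control the median log2 FC was 0.08 for Pol II, -0.07 for the general factors, -0.03 for TFIID and -0.02 for Mediator, against 0.01 over all genes. In Yeats2_auxin against Control it was 0.08, -0.02, -0.07 and -0.02, against -0.01 over all genes. The direct comparison gave 0.01, 0.09, -0.04 and 0.01, against -0.01. The summed level of the 13 Pol II genes was 1470 and 1604 CPM in Control, 1576, 1618 and 1616 CPM in Zzz3_auxin and 1543, 1694 and 1579 CPM in Yeats2_auxin, so both depletions overlapped the Control range. The 30 Mediator genes summed to 1948 and 1923 CPM in Control, to 1774, 1807 and 1837 CPM in Zzz3_auxin and to 1850, 1695 and 1868 CPM in Yeats2_auxin. All 6 Mediator sums of the depleted cultures lay below both Control values, by 2.86% to 11.9% of the lower one. The TFIID sums were 1383 and 1326 CPM in Control and 1264 to 1321 CPM in the depleted cultures, lower by 0.377% to 4.68% of the lower Control. Taf1 alone was at 369 and 333 CPM in Control and at 236 to 297 CPM in the depleted cultures, so the lower TFIID sums rest on this gene. The general factors overlapped (1139 and 1164 CPM against 1016 to 1191 CPM). These sums rest on the most abundant members of each complex, and no test was run on them.

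Among the Pol II genes, the catalytic subunit gene Polr2a was at 172 and 145 CPM in Control, 199, 183 and 207 CPM in Zzz3_auxin and 165, 174 and 189 CPM in Yeats2_auxin. Zzz3_auxin lay above Control without overlap (log2 FC 0.31 ± 0.12 (SE), edgeR adjusted p = 0.178) and Yeats2_auxin overlapped it (0.15 ± 0.12, adjusted p = 0.602). The other Pol II genes that stood out in size were small subunits. Polr2k, which encodes a zinc-binding subunit shared by all the nuclear RNA polymerases, was at 2.02 and 2.95 CPM in Control, at 1.30, 1.54 and 1.40 CPM in Zzz3_auxin and at 1.00, 1.41 and 1.78 CPM in Yeats2_auxin. Every depleted culture lay below both Controls, with the lowest fitted log2 FC of any member in both comparisons (-0.81 ± 0.30 and -0.83 ± 0.30, edgeR adjusted p = 0.158 and 0.234). The counts behind it were 21 to 65 reads per library. Polr2g, which encodes a subunit of the stalk where the nascent RNA leaves the enzyme, was at 156 and 157 CPM in Control, 116, 133 and 97.7 CPM in Zzz3_auxin and 124, 141 and 125 CPM in Yeats2_auxin. All 6 values lay below Control (log2 FC -0.43 ± 0.14 and -0.27 ± 0.14, edgeR adjusted p = 0.113 and 0.382).

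Polr2i and Polr2f varied most between the Control libraries. Polr2f, which encodes another subunit that all the nuclear polymerases share, was at 29.2 and 53.9 CPM in Control, 54.4, 49.6 and 85.8 CPM in Zzz3_auxin and 53.6, 70.7 and 49.5 CPM in Yeats2_auxin. Polr2i, whose product acts in proofreading and cleavage by the enzyme, was at 20.1 and 40.6 CPM in Control and at 41.8, 31.7 and 62.2 CPM in Zzz3_auxin. In Yeats2_auxin Polr2i was at 30.0, 44.4 and 31.6 CPM. Both genes had a low value in Control replicate 1 and a high one in Zzz3_auxin replicate 3, and the groups overlapped. Their coefficients of variation in Control were 42% and 47.8%, against a median of 9.15% over the members. The log2 FC of Polr2f in Zzz3_auxin was 0.60 ± 0.29 with all libraries, 0.22 without Control replicate 1 and 1.11 without Control replicate 2, and that of Polr2i was 0.57 ± 0.33, 0.15 and 1.17. Polr2m, whose product binds Pol II and keeps TFIIF from it, had among the narrowest intervals: its log2 FC was 0.08 (95% interval -0.17 to 0.33) in Zzz3_auxin and -0.02 (-0.27 to 0.22) in Yeats2_auxin.

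Among the general factors, the largest differences were in single genes of TFIIF, TFIIH, TFIIE and TFIIA. The 5 TFIIH core genes had median log2 FCs of -0.10 in Zzz3_auxin and -0.01 in Yeats2_auxin, with genes on both sides of 0. In TFIIE, Gtf2e1 had -0.05 and 0.13. Gtf2f1, the large subunit of TFIIF, which escorts Pol II to the promoter, was at 76.1 and 99.7 CPM in Control, 151, 121 and 136 CPM in Zzz3_auxin and 117, 140 and 116 CPM in Yeats2_auxin. All depleted cultures lay above both Controls (log2 FC 0.63 ± 0.15 and 0.50 ± 0.15, edgeR adjusted p = 0.0738 and 0.175). Gtf2h4, a core subunit of TFIIH that regulates its helicase, was at 24.0 and 33.4 CPM in Control, 38.6, 34.7 and 40.2 CPM in Zzz3_auxin and 41.6, 42.5 and 40.6 CPM in Yeats2_auxin. It too lay higher without overlap (log2 FC 0.40 ± 0.15 and 0.54 ± 0.15, edgeR adjusted p = 0.171 and 0.159), and the Control with the higher value was within 1.3 CPM of the lowest Zzz3_auxin culture.

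In the opposite direction, Gtf2a2, the small subunit of TFIIA, which stabilises TBP on DNA, was at 86.7 and 85.1 CPM in Control, 62.1, 74.8 and 70.1 CPM in Zzz3_auxin and 65.0, 73.2 and 69.8 CPM in Yeats2_auxin. The Controls were 1.6 CPM apart and every depleted culture lay at least 10.3 CPM below them (log2 FC -0.32 ± 0.12 and -0.31 ± 0.12, edgeR adjusted p = 0.164 and 0.267). Gtf2e2, the small subunit of TFIIE, which recruits TFIIH, was at 137 and 109 CPM in Control, 87.7, 92.5 and 59.9 CPM in Zzz3_auxin and 95.2, 96.1 and 93.7 CPM in Yeats2_auxin (log2 FC -0.62 ± 0.17 and -0.37 ± 0.17, edgeR adjusted p = 0.09 and 0.343). Its lowest value was again in Zzz3_auxin replicate 3. Gtf2b, which encodes TFIIB, had log2 FCs of -0.04 (95% interval -0.29 to 0.21) and -0.14 (-0.39 to 0.11). Gtf2h1, a TFIIH core subunit and the most abundant general factor gene per kb of merged exons, had 0.13 (-0.15 to 0.41) and 0.01 (-0.28 to 0.29).

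In TFIID, Taf6, a histone-fold TAF, was at 49.6 and 72.9 CPM in Control, 109, 85.4 and 94.1 CPM in Zzz3_auxin and 81.4, 95.3 and 83.5 CPM in Yeats2_auxin. Control replicate 1 was the lowest library and no depleted culture overlapped Control (log2 FC 0.65 ± 0.17 and 0.50 ± 0.17, edgeR adjusted p = 0.0833 and 0.216). The exons of Taf6 share 1185 of 4476 bases with Ap4m1 on the opposite strand. Taf1, the largest TAF and a reader of acetylated histones, was at 369 and 333 CPM in Control, 275, 297 and 236 CPM in Zzz3_auxin and 289, 286 and 294 CPM in Yeats2_auxin. Here Control was the higher group without overlap (log2 FC -0.38 ± 0.12 and -0.28 ± 0.12, edgeR adjusted p = 0.116 and 0.322). Taf13, the histone-fold partner of Taf11, was at 26.5 and 22.6 CPM in Control, 14.1, 19.9 and 11.8 CPM in Zzz3_auxin and 18.6, 20.5 and 19.7 CPM in Yeats2_auxin (log2 FC -0.68 ± 0.20 and -0.33 ± 0.20, edgeR adjusted p = 0.102 and 0.47). The groups of Taf13 did not overlap with Control either.

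Tbp was at 86.0 and 82.2 CPM in Control, 74.2, 77.4 and 80.7 CPM in Zzz3_auxin and 75.1, 62.4 and 80.6 CPM in Yeats2_auxin. All 6 depleted cultures lay below both Controls, by as little as 1.5 CPM, and the log2 FCs were -0.12 (95% interval -0.40 to 0.16) and -0.21 (-0.49 to 0.07). Its exons share 2582 of 13576 bases with Pdcd2 on the opposite strand. Taf10, which TFIID and SAGA share, had log2 FCs of -0.16 (-0.44 to 0.13) and -0.08 (-0.37 to 0.20), and 2106 of its 4584 exon bases lie opposite Ilk. The 4 TAF genes shared with SAGA had a median log2 FC of -0.07 in each comparison with Control, and the 11 TAFs of TFIID alone had 0.04 and -0.04.

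In Mediator, both subunits of the hinge of the middle module lay lower. These 2 genes, Med21 and Med7, are low in GC (41.2% and 40.2%). Med21 was at 106 and 101 CPM in Control, 67.2, 76.8 and 74.0 CPM in Zzz3_auxin and 72.9, 80.2 and 78.6 CPM in Yeats2_auxin. Its lowest Control stood 20.8 CPM above its highest depleted culture, and it had the smallest P value of any member (log2 FC -0.51 ± 0.11 and -0.42 ± 0.11, edgeR adjusted p = 0.0618 and 0.138). Over the 18 alternatives its adjusted p in Zzz3_auxin ranged from 0.00626 (DESeq2) to 0.507. Med7 was at 73.9 and 61.2 CPM in Control, 47.8, 55.8 and 47.0 CPM in Zzz3_auxin and 51.3, 54.1 and 56.7 CPM in Yeats2_auxin (log2 FC -0.43 ± 0.13 and -0.32 ± 0.13, edgeR adjusted p = 0.11 and 0.29). Med13, which ties the kinase module to the rest of Mediator, was at 280 and 212 CPM in Control, 194, 186 and 184 CPM in Zzz3_auxin and 211, 150 and 205 CPM in Yeats2_auxin. The nearest Yeats2_auxin culture was 1 CPM below Control replicate 2 (log2 FC -0.38 ± 0.16 in both comparisons, edgeR adjusted p = 0.197 and 0.304).

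**Figure D2:**
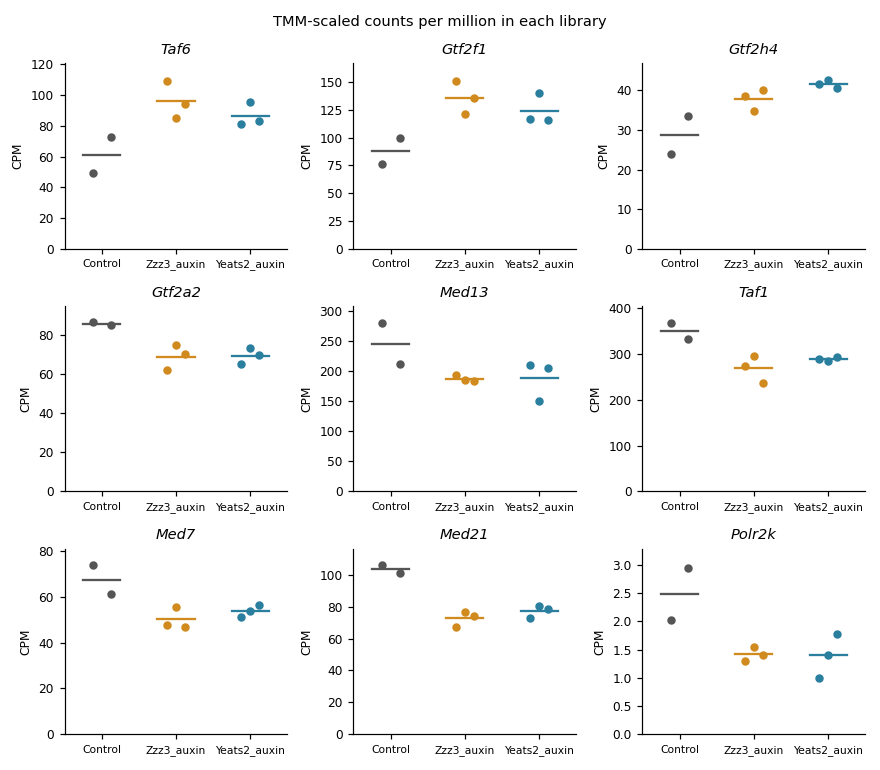
TMM-scaled CPM (vertical axes, from 0) of the 9 members with an unadjusted p under 0.05 in both comparisons with Control, in each library (points) with the group mean (bar). Taf6, Gtf2f1 and Gtf2h4 lie higher and Gtf2a2, Med13, Taf1, Med7, Med21 and Polr2k lower in all 6 depleted cultures than in both Controls, and none of the 9 passed the adjusted threshold in edgeR, while DESeq2 called Med21, Gtf2f1 and Taf6 in Zzz3_auxin.

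By module, the 9 tail genes of Mediator had a median log2 FC of 0.28 in Zzz3_auxin and 0.09 in Yeats2_auxin, and the 9 middle genes had -0.18 and -0.12. Of the tail genes 7 were above 0 in Zzz3_auxin, led by Med16 with 0.55 ± 0.25 (edgeR adjusted p = 0.229), which rested on 7.20 and 9.47 CPM in Control and on 10.9, 9.19 and 16.8 CPM in Zzz3_auxin. Med25, a tail subunit that activators bind, was at 35.0 and 50.3 CPM in Control and at 50.3, 43.5 and 77.0 CPM in Zzz3_auxin (log2 FC 0.41 ± 0.23, edgeR adjusted p = 0.334). Zzz3_auxin replicate 3 was the highest library for both. Med29, another tail subunit, had the highest fitted value of Mediator in Yeats2_auxin (log2 FC 0.34 ± 0.24, edgeR adjusted p = 0.55), which was 0.08 without Control replicate 1 and 0.65 without Control replicate 2. The transcripts of Med16, Med25 and Med29 have 60.2%, 57.4% and 56.0% GC, a property taken up below. Module medians with a GC correction are not given here. The 7 head genes had medians of -0.09 and -0.03. Med17, the central head subunit, had log2 FCs of -0.02 (95% interval -0.26 to 0.22) and -0.00 (-0.24 to 0.23). Med1, the subunit that nuclear receptors contact, had -0.18 (-0.49 to 0.13) and -0.17 (-0.49 to 0.14). Med14, the backbone that joins head, middle and tail, was at 54.2 and 46.0 CPM in Control, 47.7, 39.9 and 48.3 CPM in Zzz3_auxin and 41.1, 26.8 and 44.0 CPM in Yeats2_auxin (log2 FC -0.15 ± 0.20 and -0.43 ± 0.19, edgeR adjusted p = 0.707 and 0.341).

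The direct comparison of the depletions separated few members. Taf9b, a paralog of Taf9, was at 3.53, 3.81 and 2.94 CPM in Zzz3_auxin and at 2.40, 1.74 and 2.53 CPM in Yeats2_auxin, with 2.66 and 3.58 CPM in Control (log2 FC of Yeats2_auxin against Zzz3_auxin -0.64 ± 0.23, edgeR adjusted p = 0.779). Taf15 was at 75.1, 86.2 and 45.9 CPM in Zzz3_auxin and at 118, 99.2 and 91.7 CPM in Yeats2_auxin, with 143 and 89.2 CPM in Control (0.57 ± 0.23, adjusted p = 0.779). These were the lowest and the highest fitted value among the members. Within Mediator the highest was that of Med4, a middle subunit (0.25 ± 0.16, adjusted p = 0.779). The depletions did not overlap for Taf9b and Taf15 but did for Med4, and none of these differences passed the test. Taf1b, the Pol I factor, was at 32.0 to 45.9 CPM in all libraries, and its log2 FC was -0.09 (95% interval -0.39 to 0.21).

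Differences in paralog pairs were described by the ratio of their levels per length of the principal transcript, that is the annotated main isoform. Taf4 stood to its paralog Taf4b, known for roles in germ cells, as 0.474 and 0.492 in Control, 0.471, 0.529 and 0.549 in Zzz3_auxin and 0.648, 0.673 and 0.659 in Yeats2_auxin. The Yeats2_auxin ratios lay above all others. This came from both genes, with Taf4 at 35.0, 29.5 and 34.4 CPM and Taf4b at 63.0, 51.1 and 60.8 CPM in Yeats2_auxin, against 27.1 to 28.2 CPM and 64.2 to 69.5 CPM in Control. Neither gene passed the test alone (log2 FC 0.25 ± 0.13 and -0.20 ± 0.13, edgeR adjusted p = 0.397 and 0.499), the ratio was singled out after its values were seen, and it was not tested. GC content differs between both genes (58.7% and 45.7%), and with the GC correction their log2 FCs were -0.02 and -0.12. Med12, the activator of the Mediator kinase, stood 14.5 to 22.2 times above Med12l in all libraries. Med13 stood to Med13l as 1.72 and 1.28 in Control and as 0.962 to 1.28 in the depleted cultures.

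**Figure D3:**
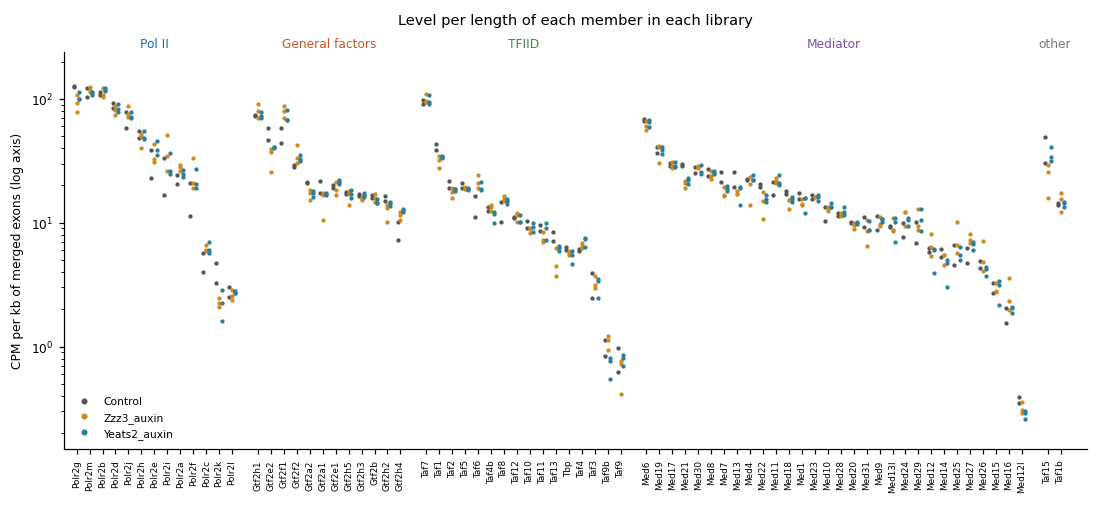
Level of every member per length (CPM per kb of merged exons, log axis) in each of the 8 libraries, by complex and in the order of the Control mean. Within a gene the points of the 3 groups lie close together, while genes of the same complex span from 2.77 to 125 in Pol II and from 0.369 to 67.8 in Mediator.

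Levels within a complex were far from equal, and this spread was much larger than any difference between groups. Per kb of merged exons, the Control mean was highest for Polr2g (125 ± 0.175 CPM per kb, SD, n = 2), Polr2m (113 ± 14.1) and Polr2b (111 ± 3.86) among the Pol II genes, and lowest for Polr2k (3.98 ± 1.05) and Polr2l (2.77 ± 0.362). Polr2m overlapped both its neighbours within its SD, while Polr2g lay above Polr2b by more than theirs. Polr2a stood at 22.5 ± 2.67 although each enzyme holds a single copy of every core subunit. In TFIID Taf7 (94.7 ± 4.52) and Taf1 (41.0 ± 2.98) stood highest, and Taf9b (0.988 ± 0.206) and Taf9 (0.798 ± 0.252) lowest, without being separated. Most exon bases of Taf9 are shared with another gene, as described below, so its rank cannot be read as that of its RNA. Among the general factors Gtf2h1 (73.3 ± 0.831) was highest (per kb of the principal transcript it stood at 79.9, below Gtf2a2 at 83.1) and Gtf2h4 (8.65 ± 2.01) lowest. In Mediator Med6, a head subunit, was highest (67.8 ± 2.00), and Med12l (0.369 ± 0.0298) lowest.

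Some members share sequence with other genes, which bears on how their reads could be counted. Reads that aligned to more than 1 place, or to exons of more than 1 gene, were not counted by the authors. The longest transcript of Polr2k matched 6 pseudogenes elsewhere in the genome at 95% identity or more over at least 100 bases, and these matches covered 50.4% of its bases. Polr2l matched 5 other genes over 29.9% of its longest transcript. Taf9 matched 3 pseudogenes over 40.5%, and 1564 of its 2120 exon bases are also exons of Ak6 on the same strand. Matches of this size were not limited to genes at low levels: Polr2h (51.7 CPM per kb of merged exons in Control) matched over 46.8% of its longest transcript, Med4 (22.3) over 38.8%, Taf10 over 30.1% and Med21 (29.3) over 26.4%. Taf9b and Med12l, both at low levels, had no such match. In all, 15 of the 73 members had a match of this kind, so reads from the matching stretches may be missing from their counts. For Taf9, reads over the bases shared with Ak6 would not have been counted under that rule, while its level was divided by all 2120 exon bases. Its level per kb can therefore not be read as the level of its RNA. Whether matches or overlaps had a part in other levels was not tested. Levels per kb also depended on the length used. Med21 was at 29.3 CPM per kb of merged exons and at 181 CPM per kb of its principal transcript of 572 bases, and the principal transcript of Tbp is annotated with 12794 bases.

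The members' differences went with the GC content of their transcripts. Over the 73 members, Pearson r between log2 FC and the GC content of the longest transcript was 0.63 in Zzz3_auxin against Control (Spearman's rho 0.62) and 0.62 in Yeats2_auxin against Control (rho 0.59). These are correlations across genes, which share the same libraries and are not independent replicates, and over all genes r was 0.37 and 0.31. With the GC content of the coding sequence in place of the whole transcript, r over the members was 0.57 and 0.56. The median log2 FC of the 20 members below 44.3% GC (the lowest 25% of those genes) was -0.33 in Zzz3_auxin and -0.24 in Yeats2_auxin. For the 17 members above 53.9% GC (the highest 25%) it was 0.32 and 0.24, and for the 36 between -0.02 in both. Of the 9 members singled out above, the 3 that lay higher in the depleted cultures had 55% to 56.3% GC and the 6 that lay lower had 38.9% to 43.6%. The complexes differ in composition too, from a median of 43% GC in the general factors to 52.4% in Pol II.

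The difference in composition can be read in the coding sequences. Shown are the middle 120 coding bases of 7 of these 9 members, the 3 that lay higher (Gtf2h4, Gtf2f1 and Taf6) and 4 that lay lower (Gtf2a2, Med7, Med13 and Med21), 5′ to 3′ on the coding strand, from the principal transcripts of the GENCODE annotation of GRCm38. G and C are in capitals.
Gtf2h4: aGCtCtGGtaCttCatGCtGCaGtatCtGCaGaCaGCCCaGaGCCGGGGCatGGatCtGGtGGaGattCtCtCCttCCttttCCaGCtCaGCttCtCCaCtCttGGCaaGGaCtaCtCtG
Gtf2f1: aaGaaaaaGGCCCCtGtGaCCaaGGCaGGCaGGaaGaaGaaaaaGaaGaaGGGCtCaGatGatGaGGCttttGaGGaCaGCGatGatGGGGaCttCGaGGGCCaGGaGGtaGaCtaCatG
Taf6: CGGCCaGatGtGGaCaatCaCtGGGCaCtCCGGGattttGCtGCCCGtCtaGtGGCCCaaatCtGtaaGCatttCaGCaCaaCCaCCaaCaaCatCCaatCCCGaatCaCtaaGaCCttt
Gtf2a2: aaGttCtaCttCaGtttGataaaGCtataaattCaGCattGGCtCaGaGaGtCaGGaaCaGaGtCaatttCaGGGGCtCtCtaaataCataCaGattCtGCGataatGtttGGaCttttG
Med7: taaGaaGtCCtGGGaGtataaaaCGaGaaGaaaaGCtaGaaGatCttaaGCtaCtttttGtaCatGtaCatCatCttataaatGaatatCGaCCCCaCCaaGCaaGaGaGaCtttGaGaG
Med13: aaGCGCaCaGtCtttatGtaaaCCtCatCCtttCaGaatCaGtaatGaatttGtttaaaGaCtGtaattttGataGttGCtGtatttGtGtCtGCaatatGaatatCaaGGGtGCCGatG
Med21: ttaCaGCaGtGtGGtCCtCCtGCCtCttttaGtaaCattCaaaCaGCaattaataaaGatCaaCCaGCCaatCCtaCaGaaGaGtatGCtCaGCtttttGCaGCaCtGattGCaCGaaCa
In these stretches G and C made up 54.2%, 51.7% and 50.8% of the bases in the first 3 and 37.5%, 36.7%, 35% and 41.7% in the last 4. Over their whole coding sequences the values were 58.2%, 55.9% and 55.6%, and 39.4%, 41.2%, 44.2% and 42.6%. The genes lie at chr17:35667730-35673739 (Gtf2h4, minus strand), chr17:57003405-57011288 (Gtf2f1, minus strand), chr5:138178617-138187451 (Taf6, minus strand), chr9:70012550-70022866 (Gtf2a2, plus strand), chr11:46436925-46442721 (Med7, plus strand), chr11:86267033-86357602 (Med13, minus strand) and chr6:146642547-146650732 (Med21, plus strand) of GRCm38. The stretches are coding bases 635 to 754, 703 to 822, 958 to 1077, 104 to 223, 290 to 409, 3197 to 3316 and 76 to 195 of each in this order, all exonic.

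How far the relation held depended on the libraries in the fit. Without Control replicate 1, r over the members was 0.42 in Zzz3_auxin and 0.27 in Yeats2_auxin, and without Control replicate 2 it was 0.69 and 0.71. Without Zzz3_auxin replicate 3 it was 0.53 and 0.62. Without Control replicate 1 and Zzz3_auxin replicate 3, the libraries whose GC trend stood apart, it was 0.23 and 0.27. In that fit the medians were 0.00 and 0.05 for the high-GC and -0.13 and -0.17 for the low-GC members. With offsets for the GC and length trend of every library, r was 0.10 and 0.13, and the medians were -0.06 and -0.10 for the low-GC and 0.08 and 0.09 for the high-GC members. After that correction 0 members were called in each comparison by edgeR (beside 1.03%, 0.742% and 0% of all genes), 15 of 73 had an unadjusted p under 0.05 in Zzz3_auxin (beside 16.5% of all genes) and 7 of 73 in Yeats2_auxin (beside 13.2%). Taf6 then had log2 FCs of 0.46 and 0.36 where the fit without correction gave 0.65 and 0.50. Med21 went from -0.51 and -0.42 to -0.26 and -0.23, and Gtf2a2 from -0.32 and -0.31 to -0.05 and -0.11. Med7 in Yeats2_auxin went from -0.32 to -0.13. Other members moved away from 0. Med22, a head subunit of Mediator, went from -0.46 and -0.35 to -0.65 and -0.50, and Gtf2h1 from 0.13 and 0.01 to 0.28 and 0.11. The part of library preparation in the relation was not tested.

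**Figure D4:**
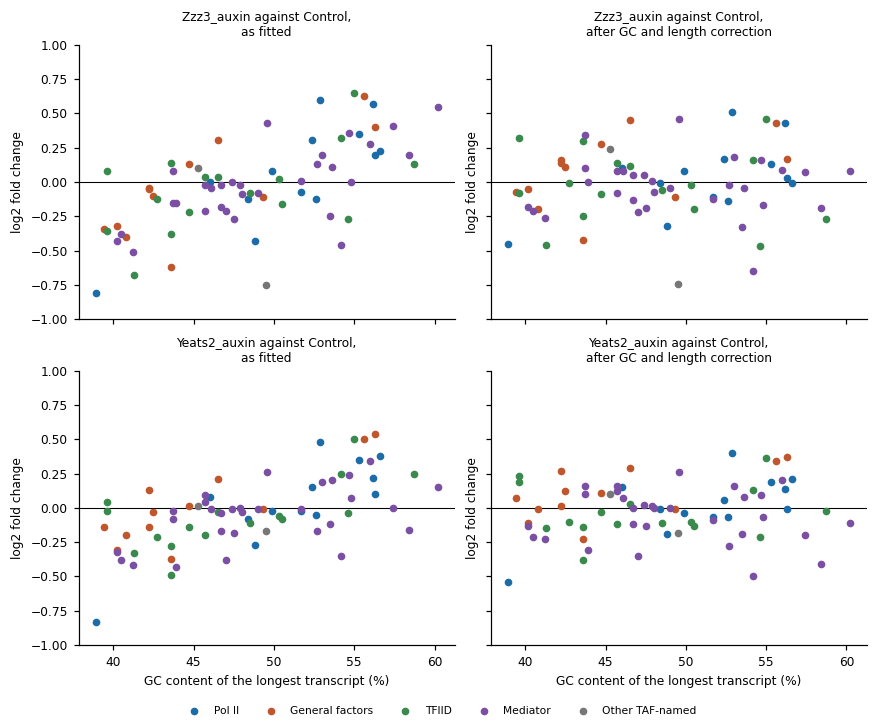
Log2 fold change (vertical axes) of the 73 members against the GC content of their longest transcript (horizontal axes, %), for Zzz3_auxin (top) and Yeats2_auxin (bottom) against Control, as fitted (left) and with the GC and length trend of every library removed (right), coloured by complex. Points climb from left to right as fitted (r of 0.63 and 0.62) and hardly do so after the correction (0.10 and 0.13).

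Per library, the GC classes moved further than any complex. Relative to the mean of the Control libraries, the median of the 17 high-GC members was -0.22 in Control replicate 1 and 0.22 in Control replicate 2 on the log2 scale, 0.15 to 0.49 in Zzz3_auxin and 0.21 to 0.28 in Yeats2_auxin. With this baseline the 2 Control values of any group of genes mirror each other by construction. All depleted cultures share the same baseline, so their values are not independent of each other. For the 20 low-GC members it was 0.05 and -0.05 in Control, -0.26 to -0.22 in Zzz3_auxin and -0.24 to -0.20 in Yeats2_auxin. The low-GC members thus lay below both Controls in all 6 depleted cultures, while for the high-GC members Control replicate 2 was level with Yeats2_auxin. The Pol II median spread from -0.13 in Control replicate 1 to 0.14 in Zzz3_auxin replicate 1, and Control replicate 2 (0.13) was within the range of the depleted cultures (0.05 to 0.14).

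**Figure D5:**
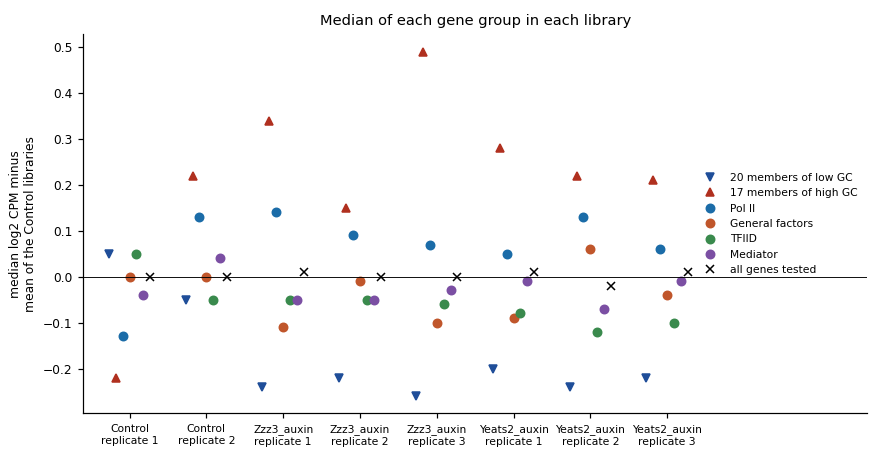
Median over the genes of each group of log2 CPM minus the mean of the Control libraries (vertical axis), in each of the 8 libraries (horizontal axis). The 4 complexes stay within -0.13 to 0.14, while the 17 members of high GC run from -0.22 to 0.49 and the 20 of low GC from -0.26 to 0.05.

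Promoter sequence is a feature that the rule did not use. RefSeq promoter windows of GRCm38.p6, from 250 bases before to 50 after the start, were matched for 62 of 73 members. The letters of 5 motifs were searched on both strands. CCGGAAG, the core of the site that ETS factors such as GABPA bind, was found in 21 of them (33.9%), against 19.4% of 10673 tested coding genes and 9.93% of all 27025 windows. It was in 3 of 10 Pol II, 4 of 11 general factor, 5 of 13 TFIID and 8 of 26 Mediator windows, and in that of Taf1b. GGGCGG, the letters of a GC box, was in 69.4% of the members and 68.3% of the tested coding genes. TATAAA, the letters of a TATA box, was in 17.7% of the members, 8.68% of the tested coding genes and 15.7% of all windows. CACGTG, an E-box, was in 17.7% of the members and 11.6% of the tested coding genes. The CCAAT box, searched as GCCAAT, was in 19.4% and 22.5%. None of these shares was tested. The median GC content of the windows was 59.4% in the members and 60.7% in the tested coding genes. Shown are the 30 bases around the motif in a member of each complex, 5′ to 3′ on the strand of the gene, with the motif or its reverse complement in capitals.
Polr2f: cggccgctgcttcCCGGAAGtaactgcgcc
Gtf2f1: tggcagctcaaCTTCCGGgtcaggctctaa
Taf13: cgctggccaggCCGGAAGtgacgtacgtat
Med17: agcccggtcagCCGGAAGttcctggctctc
A match gives the letters only and was not tested as a binding site, and members with and without the motif were not compared. The windows lie at chr15:79141295-79141324 (Polr2f, plus strand), chr17:57011310-57011339 (Gtf2f1, minus strand), chr3:108571635-108571664 (Taf13, plus strand) and chr9:15280004-15280033 (Med17, minus strand) of GRCm38.p6, before the start given in the RefSeq table. That of Polr2f lies inside the gene as GENCODE annotates it, which starts at 79141009.

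Genes that work beside the members were not called either. The list of partners (TFIIH kinase and helicase genes, the Mediator kinase and its cyclin, and TBP relatives) held 13 genes, of which 11 were tested and 0 called by edgeR in each comparison, with an unadjusted p under 0.05 for 1 higher and 1 lower in both comparisons with Control and a median log2 FC of -0.13 in Zzz3_auxin and -0.04 in Yeats2_auxin. Taf7l, a testis paralog of Taf7, had the largest fitted value (log2 FC 1.34, edgeR adjusted p = 0.0762 in Zzz3_auxin, and 1.16, adjusted p = 0.159 in Yeats2_auxin) at a mean of 0.786 CPM in Control, and Ccnc, the cyclin of the Mediator kinase, had -0.41 (adjusted p = 0.0801) and -0.35 (adjusted p = 0.175). Of 22 subunit genes of Pol I, Pol III and SL1, 0 were called by edgeR, 4 lay higher and 3 lay lower with an unadjusted p under 0.05 in Zzz3_auxin, and 2 and 1 in Yeats2_auxin. Over all genes that threshold held for 11.6% higher and 10.1% lower in Zzz3_auxin, and for 7.65% and 6.98% in Yeats2_auxin. As edgeR called only 0.753% and 0.445% of all genes, 0 calls in lists this short say little. Of 11 genes for assembly of Pol II or dephosphorylation of its tail, 0 were called by edgeR, 4 lay higher at that threshold in Zzz3_auxin and 2 in Yeats2_auxin (beside 11.6% and 7.65% of all genes), 0 lay lower, and the median log2 FC was 0.17 and 0.06. The 4 (Gpn2, Gpn3, Rpap1 and Ctdp1) have 54.3% to 57.4% GC, above the 53.9% that bounds the high-GC class.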

How the data were processed

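RNA-seq counts of 8 mouse ESC cultures were analysed, 2 Control, 3 Zzz3_auxin and 3 Yeats2_auxin. The authors trimmed reads, removed those of ribosomal RNA and aligned the rest to mm10 with STAR 2.5.3a. Reads with 1 alignment were counted per gene in HTSeq 0.6.1p1, and the raw counts were deposited without normalization. Whether counting used strand is not given in the sources used here, so reads of genes that overlap on opposite strands may not have been separated. The labels name polyA RNA, while the protocol describes ribodepleted total RNA. Reads per library assigned to genes numbered 14315120 to 27884704, and unassigned tallies were left out. Symbols, positions and transcripts came from GENCODE annotation of GRCm38, which matched 55141 of 55401 identifiers.

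Genes kept by filterByExpr (17532) were scaled by TMM, edgeR's trimmed mean method, and fitted with a mean per group over all 8 libraries by the robust quasi-likelihood test of edgeR 4.0.16 in R 4.3.3, two-sided, with Benjamini-Hochberg adjustment within each comparison and a threshold of 0.05. Members were read from these fits. The SE of a log2 fold change (FC) is its size divided by the root of the F statistic. CPM are TMM-scaled. Alternatives were DESeq2 1.42.0, limma-voom (limma 3.58.1), other size factors, other filters, only the compared groups, the replicate number as a block, offsets for each library's lowess trend (span 0.3) on GC content and length, and leaving out each library. Near-identical stretches were found with blastn 2.17.0. Tables were summarised and drawn with pandas 2.3.3 and matplotlib 3.10.9 in Python 3.11.15. The pipeline was tested on simulated data for Zzz3_auxin against Control. There edgeR called 58 of 100 genes given a log2 FC of 1 in size, and 97 of 100 given 2.

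Members, complexes, gene lists and tests were chosen with earlier results of these data known, so they are not independent of them. By rule 39 members were named: those with an unadjusted p under 0.05 and no overlap in both comparisons with Control, the highest and lowest log2 FC and the highest and lowest level of each complex, and a list of core subunits and paralog pairs. The search for near-identical copies, the GC content of coding sequences and the Taf4 to Taf4b ratio were added after the data were seen. The coding stretches of 2 of the 9 members singled out are not reported here.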

Additional observations from a re-analysis of the deposited data

How the results depend on the processing

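Member calls depended on the filter and the tool. Without a filter edgeR called 7 members in Zzz3_auxin against Control, 3 in Yeats2_auxin against Control and 1 in the direct comparison, beside 0 in each with it, while calls over all genes were 1542, 553 and 117 (4.67%, 1.68% and 0.354%). DESeq2 called 6 members in Zzz3_auxin against Control, where all-gene calls went from 132 to 1080. In Yeats2_auxin against Control limma-voom called 1. With 1 library left out, calls ranged from 0 to 6 in Zzz3_auxin (6 without Zzz3_auxin replicate 2, where 841 of all genes were called) and stayed at 0 in the other comparisons. Deviations of same-numbered replicates from their group means had Pearson r of -0.34 to 0.31. The deviations of the 2 Control libraries mirror each other, so this cannot decide whether the numbers pair the samples. With the replicate number as a block on all groups 0 members were called in each comparison, and the Mediator median in Yeats2_auxin was -0.06. With the block in a fit of only the 2 groups compared, an alternative chosen after seeing the data, 9 members were called in Yeats2_auxin (1396 of all genes) and 0 in the other comparisons. Without the block, the fit of only the 2 groups called 0 members and 454 of all genes in Yeats2_auxin.

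Complex medians moved with the libraries in the fit. With 1 library left out (a lone Control library was assumed to vary like the other groups), the Pol II median ran from -0.05 to 0.19 in Zzz3_auxin and from -0.14 to 0.11 in Yeats2_auxin, and the lowest values were those without Control replicate 1. TFIID ran from -0.10 to -0.01 and from -0.19 to -0.05, and from -0.04 to 0.01 in the direct comparison, and Mediator ran from -0.06 to 0.02 and from -0.06 to -0.00. Without Control replicate 1 and Zzz3_auxin replicate 3 together, chosen after seeing the data, medians in Zzz3_auxin were -0.08 for Pol II, 0.02 for TFIID and -0.08 for Mediator, and in Yeats2_auxin -0.12 for Pol II and -0.03 for TFIID. The GC and length correction put the general factors at 0.12 in Zzz3_auxin and 0.09 in Yeats2_auxin. The cause of these shifts was not tested. The median Control level per kb of merged exons was 30.7 for Pol II, 19.5 for the general factors, 10.4 for TFIID and 11.8 for Mediator. With the longest transcript it was 36.0, 12.4 and 15.3 for the last 3, and with the principal transcript, chosen after seeing the data, 71.4, 41.9, 12.4 and 21.5.

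Of 2106 values of named members under the alternatives, 131 changed sign without being called in either fit, 32 were newly called and 0 were called with the opposite sign. The 2 Control libraries limit the precision of every comparison with Control, and Control replicate 1 is the library whose GC trend stood furthest from the others (-0.60). Polr2k had 21 to 65 reads per library and Taf9 24 to 47, so their intervals are wide.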
